A study of Homo sapiens with 12 samples.

Results

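The YTH-domain m6A readers are a family of 5 human genes, YTHDF1, YTHDF2, YTHDF3, YTHDC1 and YTHDC2. Their members were taken by gene symbol from transcript tables that list 58288 genes and 200401 transcript models, and they hold 41 of those models. YTHDF1 had 2 models, YTHDF2 9, YTHDF3 16, YTHDC1 7 and YTHDC2 7. All 41 were found by identifier and version in GENCODE release 29. Of the 41, 18 reached a mean of 1 CPM (estimated counts scaled to a common library size) in at least 1 group, and 13 had no estimated count in any library.

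Polyadenylated RNA was measured in HEK-293T, a human embryonic kidney line, in 12 libraries of 4 groups with 3 libraries each. Every culture carried a CIRTS effector, an RNA-targeting protein steered by a guide RNA. The YTHDF2-SMARCA4 group held the CIRTS-3 YTHDF2 effector with a guide against SMARCA4, and the YTHDF2-NT group held the same effector with a non-targeting (NT) guide. The nuclease-SMARCA4 and nuclease-NT groups held the CIRTS-12 Nuclease effector with those guides. No group lacked an effector, and the labels give neither the parts of the constructs nor the way the cells received them. The effector and any batch tied to it therefore cannot be told apart. The series calls the replicates biological but does not tie them to separate cultures, so the spread that p-values are set against is that between libraries and may be partly technical. As these are bulk samples, fewer cells of a kind and less RNA per cell cannot be told apart.

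N6-methyladenosine (m6A) is laid on mRNA by a methyltransferase complex, and the YTH domain holds an aromatic pocket that binds it. The cytoplasmic YTHDF proteins are linked to mRNA decay, with YTHDF2 recruiting the CCR4-NOT deadenylase through its amino-terminal region while the YTH domain sits at the carboxyl end. YTHDC1 is nuclear and acts in splicing and export, and YTHDC2 is an RNA helicase known from the germ line.

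Libraries held between 9207196 and 18047859 estimated counts. The 6 markers of HEK-293T cells summed to 518 to 651 TPM (a share of all transcripts after division by length), most of it VIM at a median of 425 TPM, while PAX2 had a median of 0.977 TPM. Fibroblast markers summed to at most 4.10 TPM and those of liver, blood and muscle to at most 1.51 TPM, and 2 of 3 fibroblast, 1 of 3 liver, 1 of 3 blood and 0 of 3 muscle markers reached 1 TPM in some library. SMARCA4, the guide's target, averaged 224 ± 16.9 CPM in YTHDF2-SMARCA4 and 262 ± 35.4 CPM in YTHDF2-NT (SD, n = 3 each). It averaged 236 ± 15.3 CPM in nuclease-SMARCA4 and 237 ± 10.6 CPM in nuclease-NT (SD, n = 3 each). Neither guide comparison called it. Its log2 fold change, SMARCA4 over NT guide, was −0.22 with YTHDF2 (SE 0.095, unadjusted p = 0.0337, adjusted p = 0.703, edgeR quasi-likelihood test). With the nuclease it was −0.0085 (SE 0.095, adjusted p = 0.985, same test). The YTHDF2 comparison called 0 of 16297 genes, and 6.82% of them had an unadjusted p under 0.05. The YTHDF2-NT libraries stood apart from each other. Each gene's log2 CPM was set against its mean over the 12 libraries, and over 11482 genes this deviation followed transcript length with Spearman's rho at −0.63 in library 1 of YTHDF2-NT, 0.61 in library 2 and −0.32 in library 3 (YTHDF2-NT 1, 2 and 3). In the other groups rho ran from −0.34 in nuclease-SMARCA4 2 to 0.44 in YTHDF2-SMARCA4 1, so the trend was not confined to YTHDF2-NT. Fold changes and correlations without YTHDF2-NT 1 and 2 are given where they change a result.

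YTHDF2 lies on chromosome 1 (28736621 to 28769775, plus strand, GRCh38). Its estimated counts fell on 2 kinds of transcript model. A short model annotated as a processed transcript, YTHDF2-205 (ENST00000476976.1), took nearly all YTHDF2 counts in the libraries with the YTHDF2 effector and almost none with the nuclease. It is the YTHDF2 model with the most estimated counts in the 6 YTHDF2 libraries and is called the effector-raised model. The other 8 models were summed as a measure of YTHDF2 apart from it.

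YTHDF2-205 is 657 bases long in 3 exons, at 28737750 to 28737829, 28738259 to 28738338 and 28742403 to 28742899 of chromosome 1. Its last 577 bases, 87.8% of the model, lie in the coding sequence of YTHDF2-209, the longest-coding model, at coding bases 53 to 629 of 1740. They are 33.2% of that coding sequence and span codons 18 to 210 of 579, the amino-terminal side of the protein. The first 300 of these bases are printed because they belong to the sequence on which the effector-raised counts fell. They come from the GENCODE 29 transcripts on GRCh38 and read 5′ to 3′ on the plus strand. Capitals mark the 202 bases, coding bases 151 to 352, that are also coding in YTHDF2-208, and the 98 lower-case bases before them are coding in YTHDF2-209 only among these 2 models.
YTHDF2-205 coding part: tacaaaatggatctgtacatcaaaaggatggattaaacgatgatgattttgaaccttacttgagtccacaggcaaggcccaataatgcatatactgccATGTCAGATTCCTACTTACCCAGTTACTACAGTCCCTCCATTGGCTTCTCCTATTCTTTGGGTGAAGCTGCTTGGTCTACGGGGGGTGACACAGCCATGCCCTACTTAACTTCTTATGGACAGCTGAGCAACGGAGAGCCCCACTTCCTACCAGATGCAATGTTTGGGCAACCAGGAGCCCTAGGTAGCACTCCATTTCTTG

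Reads from this stretch cannot be assigned to another reader of the family by exact sequence. Of 206694 annotated transcripts scanned for shared runs of 31 bases, 10 from 2 genes held one. They were the 9 YTHDF2 models and a model of the pseudogene YTHDF2P1, which was at no more than 0.233 CPM in any library. No model of YTHDF1, YTHDF3, YTHDC1 or YTHDC2 shared such a run. Aligned over 564 bases, YTHDF1 matched the YTHDF2 stretch at 65.2% of bases with a longest identical run of 14, and YTHDF3 matched at 72.1% over 570 bases with a longest run of 16. Over the whole coding sequence YTHDF1 and YTHDF2 were 69.4% identical, YTHDF2 and YTHDF3 71.4%, and YTHDF1 and YTHDF3 70.5%. YTHDC1 and YTHDC2 were 59.5% identical over their aligned coding bases. The first 120 bases of the stretch are printed beside YTHDF1 (chromosome 20, minus strand, written in the sense of the mRNA) to show how the paralogs differ. Capitals mark the 77 bases that are identical at the aligned position, and both lines cover coding bases 53 to 172.
YTHDF2 coding: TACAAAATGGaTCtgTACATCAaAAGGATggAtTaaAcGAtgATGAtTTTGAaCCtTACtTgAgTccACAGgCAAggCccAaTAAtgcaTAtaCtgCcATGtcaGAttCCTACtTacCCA
YTHDF1 coding: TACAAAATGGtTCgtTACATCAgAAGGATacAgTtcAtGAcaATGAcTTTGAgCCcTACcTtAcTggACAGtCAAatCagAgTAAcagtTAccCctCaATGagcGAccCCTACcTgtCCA

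YTHDF2-205 was at 4549.9, 5859.7 and 5683 CPM in YTHDF2-SMARCA4 and at 6046, 5126 and 7682.5 CPM in YTHDF2-NT. It was at 0, 0 and 1.22 CPM in nuclease-SMARCA4 and at 0, 0.679 and 0 CPM in nuclease-NT. All 6 YTHDF2 libraries lay at or above 4549.9 CPM and 4 of the 6 nuclease libraries had no estimated count, so the effectors did not overlap with either guide. The model held between 0.465% and 0.749% of all estimated counts in the YTHDF2 libraries. It held 18.5 ± 1.69 times the counts of the other YTHDF2 models together in YTHDF2-SMARCA4 and 18.7 ± 3.31 times in YTHDF2-NT (SD, n = 3 each). No test or fold between effectors is given, since the model was singled out by its counts in the YTHDF2 libraries and the nuclease libraries are at or near 0. Between guides the YTHDF2 libraries overlapped, with the SMARCA4 guide over the NT guide standing at −0.23 on the log2 scale (SE 0.26, adjusted p = 0.827).

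The sum of all YTHDF2 models followed YTHDF2-205. It averaged 5653 ± 724 CPM in YTHDF2-SMARCA4 and 241 ± 32.7 CPM in nuclease-SMARCA4, which is 4.55 higher on the log2 scale (SE 0.16). It averaged 6619 ± 1307 CPM in YTHDF2-NT, against 264 ± 17.9 CPM in nuclease-NT, which is 4.65 higher on the log2 scale (SE 0.16, SD over n = 3 each). The call of this sum between effectors is not counted, since YTHDF2-205 carries it and was singled out by the same counts. With YTHDF2-205 set apart, no reader was called between effectors with either guide or averaged over both (edgeR quasi-likelihood test). Of 16297 genes, summed YTHDF2 among them, 0.00614% were called with the SMARCA4 guide, 0.0491% with the NT guide and 0.0307% over both. Those called as higher were 0.00614%, 0.0184% and 0.0245%. With the SMARCA4 guide summed YTHDF2 was the 1 gene called.

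**Figure D1:**
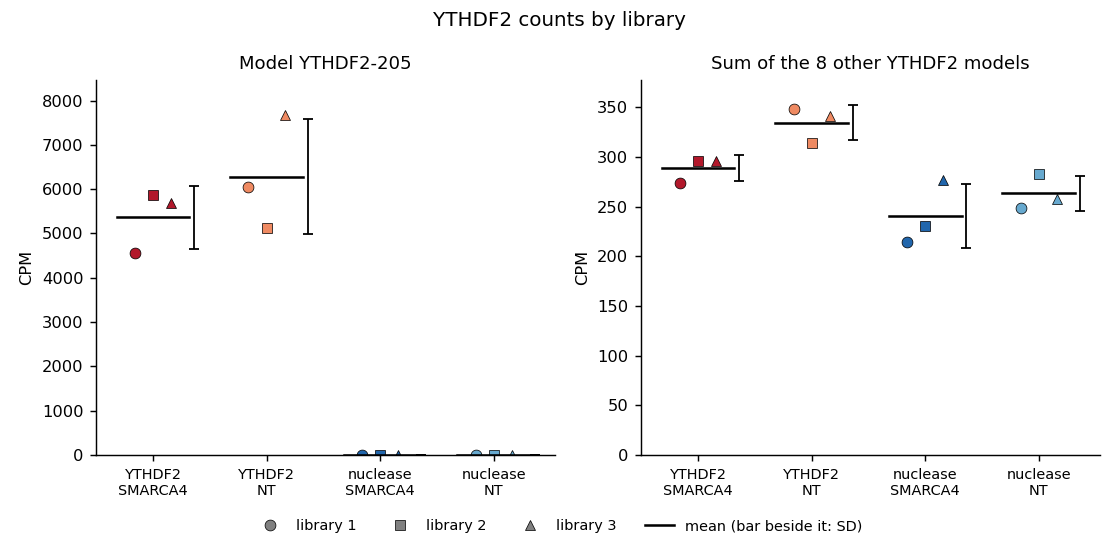
Each point is 1 library's CPM (y axes, linear from 0) of model YTHDF2-205 on the left and of the other 8 YTHDF2 models summed on the right, in the 4 groups (x axes). Lines are group means and bars SDs, n = 3. YTHDF2-205 sits between 4549.9 and 7682.5 CPM with the YTHDF2 effector and at most at 1.22 CPM with the nuclease, while the other models span 214.8 to 348.1 CPM over all groups.

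The other YTHDF2 models were at 274.0, 296.3 and 295.9 CPM in YTHDF2-SMARCA4 and at 348.1, 314.1 and 341.3 CPM in YTHDF2-NT. They were at 214.8, 230.0 and 276.3 CPM in nuclease-SMARCA4 and at 249.0, 283.0 and 258.1 CPM in nuclease-NT. With the NT guide every YTHDF2 library lay above every nuclease library, and with the SMARCA4 guide the groups overlapped in 1 library, nuclease-SMARCA4 3. Absence of overlap in that direction was found for 6.86% of all genes with the NT guide and 13.4% with the SMARCA4 guide.

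The fitted log2 fold change of the other models, YTHDF2 over nuclease, was 0.34 with the NT guide (SE 0.091, unadjusted p = 0.00224, adjusted p = 0.272). It was 0.26 with the SMARCA4 guide (SE 0.091, unadjusted p = 0.0121, adjusted p = 0.331). Averaged over guides it came to 0.30 (SE 0.065, unadjusted p = 0.000378, adjusted p = 0.134), or 23.5% with a 95% interval from 12.2% to 36%. None passed the edgeR quasi-likelihood test over all genes. The average passed when YTHDF2-NT 2 was left out (0.32, adjusted p = 0.0242) and when YTHDF2-NT 1 was left out (0.29, adjusted p = 0.0465), and over all its alternatives the adjusted p ran from 0.00163 to 0.402. With the NT guide it passed without YTHDF2-NT 2 (0.38, adjusted p = 0.0249), within a range of adjusted p from 0.0249 to 0.854. Over all genes, leaving out YTHDF2-NT 2 gave 290 calls over both guides and 1610 with the NT guide. Leaving out YTHDF2-NT 1 gave 134 over both guides. With all libraries the calls were 5 over both guides and 8 with the NT guide, so these passes are not particular to YTHDF2. In TPM the other models were at 116.3, 141.8 and 134.9 in YTHDF2-NT and at 106.8, 124.0 and 111.9 in nuclease-NT, so on that scale the effectors overlapped with the NT guide. With the SMARCA4 guide they did not overlap in TPM, at 119.7, 140.3 and 135.2 in YTHDF2-SMARCA4 and 86.3, 88.0 and 119.2 in nuclease-SMARCA4. No share of all genes was taken for overlap in TPM. Each of these 8 models shares a run of 311 to 578 bases with the effector-raised model, so counts from an introduced YTHDF2 sequence and from the cells' own gene cannot be told apart in them.

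Between guides, every YTHDF2-SMARCA4 library lay below every YTHDF2-NT library for the other models, with means of 289 ± 12.7 and 334 ± 18.0 CPM (SD, n = 3 each). Of all genes, 4.98% were lower without overlap in that comparison. In TPM these groups overlapped, at 119.7, 140.3 and 135.2 in YTHDF2-SMARCA4 and 116.3, 141.8 and 134.9 in YTHDF2-NT, and limma on log2(TPM + 1) put the difference at 0.0096. The log2 fold change was −0.21 (SE 0.091, unadjusted p = 0.0362, adjusted p = 0.703, edgeR quasi-likelihood test). With the nuclease the means were 240 ± 32 CPM with the SMARCA4 guide and 263 ± 17.6 CPM with the NT guide, a log2 fold change of −0.13 (adjusted p = 0.627), and the libraries overlapped. The difference of these 2 guide effects, YTHDF2 minus nuclease, was −0.08 (SE 0.13, adjusted p = 0.833).

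Among the other YTHDF2 models 2 held most of the length-normalized level, TPM. YTHDF2-208 (ENST00000541996.5, 2719 bases) was at 82.1, 92.4 and 94.1 TPM in YTHDF2-SMARCA4, 92.4, 88.1 and 86.8 TPM in YTHDF2-NT, 51.2, 54.5 and 64.1 TPM in nuclease-SMARCA4, and 63.4, 82.3 and 69.3 TPM in nuclease-NT. YTHDF2-209 (ENST00000542507.5, 2825 bases) was at 33.7, 23.4 and 15.5 TPM in YTHDF2-SMARCA4, 15.2, 44.7 and 37.3 TPM in YTHDF2-NT, 30.5, 33.0 and 46.1 TPM in nuclease-SMARCA4, and 39.3, 36 and 41.3 TPM in nuclease-NT. YTHDF2-208 was higher in every YTHDF2 library than in any nuclease library with the same guide, and YTHDF2-209 overlapped with both guides. The shorter protein-coding model YTHDF2-207 (879 bases) was at 2.52 to 22.9 TPM in YTHDF2-SMARCA4 and 4.42 to 5.20 TPM in YTHDF2-NT, against 0 to 2.68 TPM in nuclease-SMARCA4 and 0 to 0.979 TPM in nuclease-NT. YTHDF2-201 and YTHDF2-206 each stayed at or below 5.42 TPM in every library.

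As a share of the YTHDF2 level without YTHDF2-205, YTHDF2-209 was at 28.1, 16.7 and 11.5% in YTHDF2-SMARCA4 and 13.1, 31.5 and 27.6% in YTHDF2-NT, against 35.3, 37.4 and 38.7% in nuclease-SMARCA4 and 36.8, 29 and 36.9% in nuclease-NT. All 3 YTHDF2-SMARCA4 libraries lay below every nuclease library, and YTHDF2-NT overlapped nuclease-NT. The mean difference between effectors was −14.2 percentage points. An exact two-sided permutation test of 6 against 6 libraries within guide, with 400 arrangements and a smallest p of 0.005, gave p = 0.01. The share of YTHDF2-208 was 7.85 points higher (exact p = 0.025), that of YTHDF2-207 was 6.42 points higher (exact p = 0.01), and that of YTHDC2-205, an intron-retaining YTHDC2 model, was 2.33 points higher (exact p = 0.045). Adjusted over the 16 model shares compared in the family, these 4 had p = 0.08, 0.133, 0.08 and 0.18 by the exact permutation test, so none passed. YTHDF2-207 shares a run of 497 of its 879 bases with YTHDF2-205, so reads of an introduced sequence placed on it cannot be told apart. In the fit of 49518 transcript models, 19 of the 41 YTH models passed the filter on low counts. YTHDF2-205 passed that filter through the libraries that singled it out, so its call between effectors is not counted. Of the other 18, edgeR called 0 between effectors, where 0.00808% of models were called with the SMARCA4 guide, 0.00404% with the NT guide and 0.0101% over both. An unadjusted p under 0.05 was found for 4 of the 18 with the SMARCA4 guide, 1 with the NT guide and 4 over both. None of the 19 was called by edgeR between guides, beside 0.00606% of models with YTHDF2 and 0.00202% with the nuclease, or in the difference of guide effects, beside 0.00606%. Only 1 of the 19 had an unadjusted p under 0.05 in these 3 comparisons, with the nuclease. The share of all 49518 models with such a p is not given. Nothing about the family is therefore read from these unadjusted counts, between guides or between effectors. YTHDF2-208 had a log2 fold change of 0.54 over both guides (SE 0.097, unadjusted p = 0.000238, adjusted p = 0.471, edgeR quasi-likelihood test). The error of dividing reads among models is not part of these tests.

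**Figure D2:**
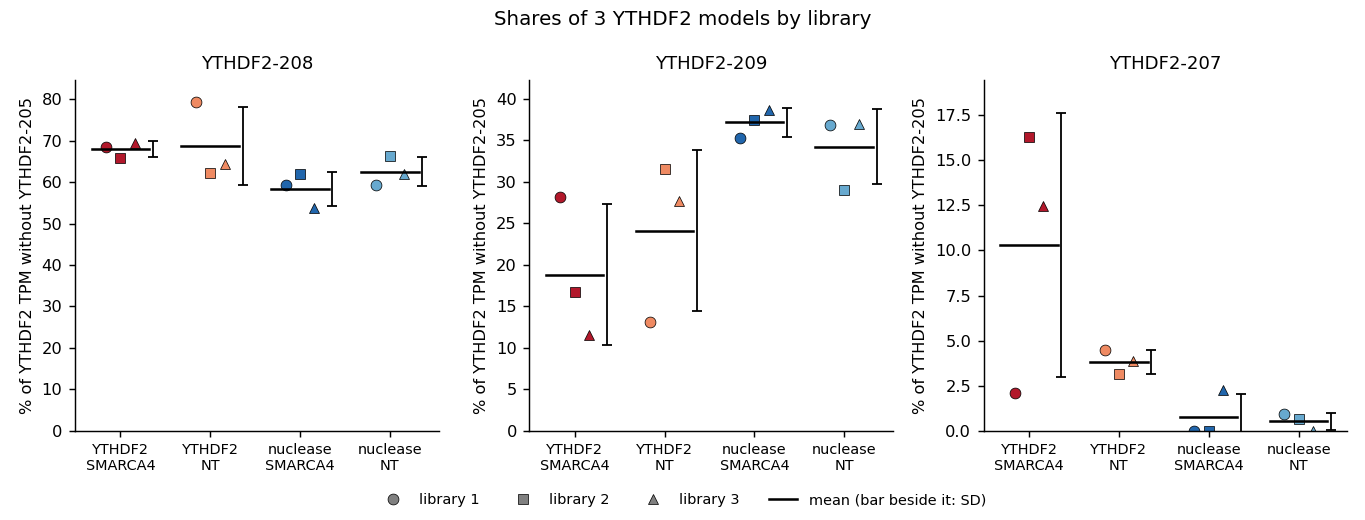
Each point is the share, in percent, of 1 library's YTHDF2 level in TPM without YTHDF2-205 that fell on models YTHDF2-208, YTHDF2-209 and YTHDF2-207 (y axes, linear from 0), in the 4 groups. Lines are means and bars SDs, n = 3. YTHDF2-209 averaged 18.8% and 24.1% in the YTHDF2 groups with the SMARCA4 and NT guides, and 37.1% and 34.2% in the nuclease groups with those guides.

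Ordered by TPM, the levels of the family were YTHDF2 without YTHDF2-205, YTHDC1, YTHDF1, YTHDF3 and YTHDC2. Over the 12 libraries they averaged 119 ± 18.5, 38.1 ± 5.09, 25.5 ± 3.25, 15.2 ± 2.85 and 8.91 ± 1.89 TPM (SD over all libraries). The values of YTHDF2, YTHDC1, YTHDF1 and YTHDF3 did not overlap with one another over the 12 libraries. YTHDF3 and YTHDC2 overlapped in YTHDF2-NT, where YTHDF3 ran from 8.44 to 20.2 TPM and YTHDC2 from 4.53 to 12.3 TPM, and in no other group. With YTHDF2-205 counted, YTHDF2 averaged 12162 ± 1358 TPM in YTHDF2-SMARCA4 and 12910 ± 2818 TPM in YTHDF2-NT, against 98.7 ± 20.1 TPM in nuclease-SMARCA4 and 115 ± 9.71 TPM in nuclease-NT (SD, n = 3 each).

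YTHDF1 (chromosome 20, 63195429 to 63216234, minus strand, GRCh38), a cytoplasmic paralog of YTHDF2, was at 69.7, 78.9 and 74.0 CPM in YTHDF2-SMARCA4 and at 74.9, 76.5 and 75 CPM in YTHDF2-NT. It was at 59.1, 62.7 and 68.3 CPM in nuclease-SMARCA4 and at 68.1, 74.6 and 71.5 CPM in nuclease-NT. With either guide the YTHDF2 libraries all lay above the nuclease libraries, by a margin of under 2 CPM. So did 13.4% of all genes with the SMARCA4 guide and 6.86% with the NT guide, at any margin. In TPM the effectors overlapped with the NT guide, at 21.0, 30.6 and 23.8 in YTHDF2-NT and 25.9, 28.1 and 27.1 in nuclease-NT, and limma on log2(TPM + 1) turned the direction there (−0.12) and between guides with YTHDF2 (0.14). The log2 fold change, YTHDF2 over nuclease, was 0.23 with the SMARCA4 guide (SE 0.076, unadjusted p = 0.0098, adjusted p = 0.326) and 0.08 with the NT guide (adjusted p = 0.745), by the edgeR quasi-likelihood test. Between guides it was −0.02 with YTHDF2 (adjusted p = 0.942) and −0.17 with the nuclease (SE 0.076, unadjusted p = 0.0408, adjusted p = 0.433), and the CPM of the libraries overlapped in both. In TPM nuclease-SMARCA4, at 20.7, 20.9 and 25.4, lay below nuclease-NT without overlap, and no share of all genes was taken on that scale. The model YTHDF1-202 carried most of the gene, at 19.3 to 26.6 TPM, and the short YTHDF1-201 was at 0 to 3.98 TPM.

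YTHDF3 (chromosome 8, 63168553 to 63212786, plus strand), the third cytoplasmic YTHDF protein, was at 67.2, 65.1 and 59.7 CPM in YTHDF2-SMARCA4 and at 41.4, 78.9 and 58.6 CPM in YTHDF2-NT. It was at 52.9, 52.1 and 59.9 CPM in nuclease-SMARCA4 and at 61.2, 57.8 and 56.6 CPM in nuclease-NT. The lowest and the highest of the 12 values both came from YTHDF2-NT, and in CPM the groups overlapped in every comparison. In TPM YTHDF2-SMARCA4, at 17.6, 16.4 and 16.0, lay above nuclease-SMARCA4, at 12.9, 13.1 and 15.4. No share of all genes was taken for overlap on that scale. On log2(TPM + 1) limma put the effectors with the NT guide at −0.17, the other direction from the count fit. The fold changes between effectors were 0.22 with the SMARCA4 guide (SE 0.16, adjusted p = 0.633) and 0.03 with the NT guide (SE 0.16, adjusted p = 0.973) on the log2 scale. Between guides they were 0.10 with YTHDF2 (adjusted p = 0.878) and −0.09 with the nuclease (adjusted p = 0.876, edgeR quasi-likelihood test). Of its 16 models 4 were named. YTHDF3-201 was the steadiest of them, at 3.62 to 6.54 TPM, while YTHDF3-205, YTHDF3-208 and YTHDF3-209 each came below 0.01 TPM in at least 1 library and reached 11.9, 7.98 and 6.05 TPM in others.

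YTHDC1 (chromosome 4, 68310387 to 68350089, minus strand), the nuclear reader, was at 99.0, 106.6 and 102.5 CPM in YTHDF2-SMARCA4 and at 114.6, 115.2 and 108.9 CPM in YTHDF2-NT. It was at 87.0, 91.9 and 90.6 CPM in nuclease-SMARCA4 and at 87.8, 103.0 and 105.8 CPM in nuclease-NT. The YTHDF2 libraries lay above the nuclease libraries with either guide, and YTHDF2-SMARCA4 lay below YTHDF2-NT without overlap. The same was found for 13.4% of all genes between effectors with the SMARCA4 guide, 6.86% with the NT guide and 4.98% between YTHDF2 guides. In TPM the effectors overlapped with the NT guide, at 32.4, 48.4 and 38.1 in YTHDF2-NT and 36.1, 40.2 and 42.5 in nuclease-NT. On log2(TPM + 1) limma turned the direction there (−0.0142) and between guides with YTHDF2 (0.0455), where TPM overlapped too. Its log2 fold change, YTHDF2 over nuclease, was 0.19 with both guides (SE 0.076 in each, unadjusted p = 0.0246 and 0.0255, adjusted p = 0.384 with SMARCA4 and 0.387 with NT). Averaged over guides it came to 0.19 (SE 0.054, unadjusted p = 0.00332, adjusted p = 0.199), or 14.3% with a 95% interval from 5.44% to 23.9%. Between guides it was −0.14 with YTHDF2 (adjusted p = 0.706) and −0.14 with the nuclease (adjusted p = 0.546, edgeR quasi-likelihood test). YTHDC1-207 and YTHDC1-202 carried it at 12.4 to 24.2 and 12.3 to 21.3 TPM, and the intron-retaining YTHDC1-204 was at 0.883 to 6.11 TPM.

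YTHDC2 (chromosome 5, 113513683 to 113595285, plus strand), the helicase of the family and its longest transcript, was at 53.2, 54.6 and 51.2 CPM in YTHDF2-SMARCA4 and at 33.8, 60.0 and 40.9 CPM in YTHDF2-NT. It was at 48.4, 41.4 and 49.1 CPM in nuclease-SMARCA4 and at 52.8, 51.1 and 52.3 CPM in nuclease-NT. YTHDF2-NT spanned the range of all other groups, while nuclease-SMARCA4 lay below nuclease-NT and below YTHDF2-SMARCA4 without overlap. Of all genes, 12.2% were lower without overlap between guides with the nuclease, and 13.4% were higher with YTHDF2 without overlap with the SMARCA4 guide. Between guides the log2 fold change was 0.24 with YTHDF2 (SE 0.15, adjusted p = 0.724) and −0.17 with the nuclease (SE 0.15, adjusted p = 0.724), and their difference was 0.41 (SE 0.22, unadjusted p = 0.0816, adjusted p = 0.491). Between effectors it was 0.20 with the SMARCA4 guide (adjusted p = 0.65) and −0.22 with the NT guide (adjusted p = 0.643, edgeR quasi-likelihood test). Leaving out YTHDF2-NT 2 alone made 3 of these pass, at 0.51 between guides with YTHDF2 (adjusted p = 0.023), 0.68 for the difference (adjusted p = 0.0218) and −0.48 between effectors with the NT guide (adjusted p = 0.0142). That fit called 1585, 1444 and 1610 genes in these 3 comparisons, against 0, 0 and 8 with all libraries, so these passes are not particular to YTHDC2. Without YTHDF2-NT 1 none of the 3 passed.

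**Figure D3:**
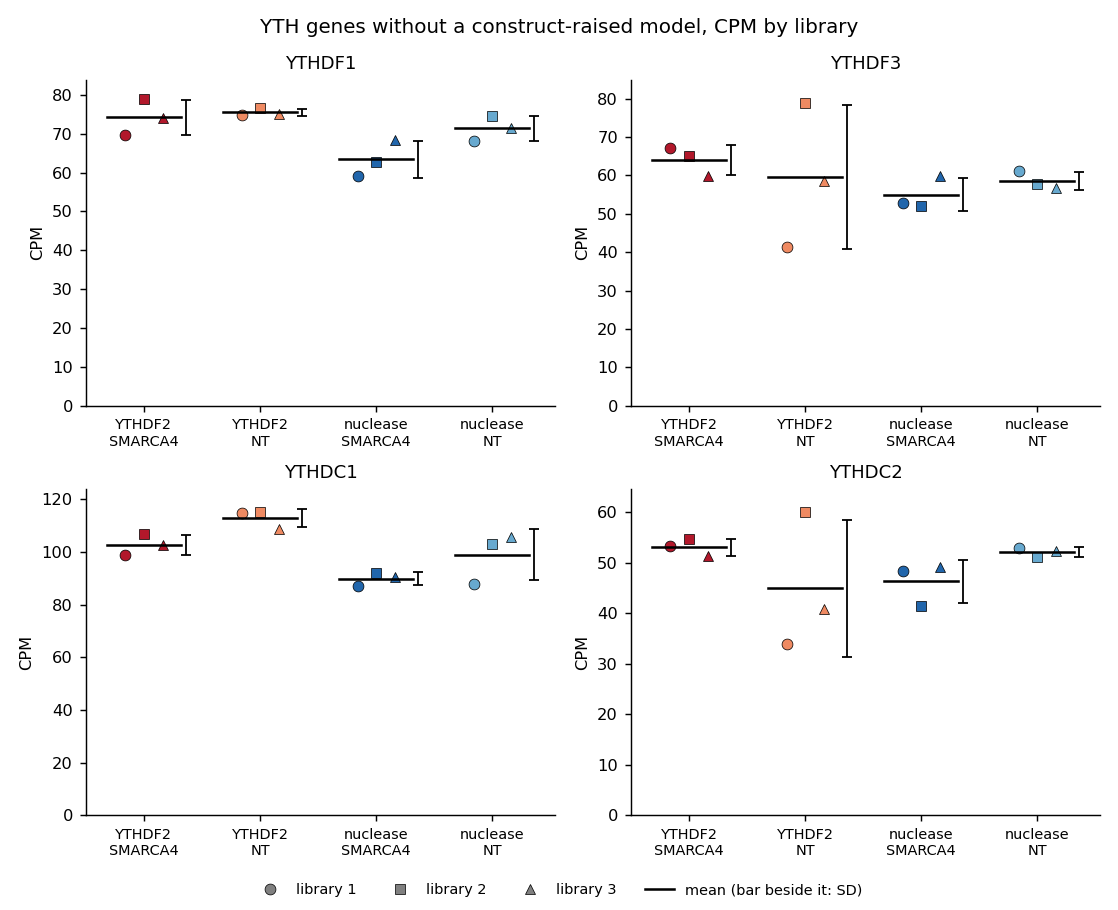
Each point is 1 library's CPM (y axes, linear from 0) of YTHDF1, YTHDF3, YTHDC1 and YTHDC2, in the 4 groups (x axes), with group means as lines and SDs as bars, n = 3. YTHDF3 and YTHDC2 spread most in YTHDF2-NT, at 41.4 to 78.9 CPM and 33.8 to 60.0 CPM, while YTHDF1 and YTHDC1 there spanned 74.9 to 76.5 CPM and 108.9 to 115.2 CPM.

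Counted over the family, none of YTHDF1, YTHDF3, YTHDC1 and YTHDC2 was called in any of the 6 comparisons by the edgeR quasi-likelihood test or by DESeq2. Of these 4, at most 2 had an unadjusted p under 0.05 in any comparison, YTHDF1 and YTHDC1 between effectors with the SMARCA4 guide and over both guides, where 11.5% of all genes had one in either comparison. Between guides 0 of 5 readers were called with YTHDF2, beside 0% of 16297 genes, and 0 of 5 with the nuclease, beside 0.00614%. The difference of guide effects called 0 of 5, beside 0% of genes. In the 2 comparisons with no call over all genes, 1112 genes with YTHDF2 and 1802 for the difference of guide effects had an unadjusted p under 0.05, and DESeq2 called 3 and 38. In CPM, with YTHDF2-205 left aside, the readers higher with YTHDF2 without overlap were YTHDF1, YTHDC1 and YTHDC2 with the SMARCA4 guide. With the NT guide they were YTHDF1, YTHDC1 and the other YTHDF2 models. Of all genes, 13.4% were higher in this way with the SMARCA4 guide and 6.86% with the NT guide. Lower in CPM without overlap between guides were YTHDC1 and the other YTHDF2 models with YTHDF2, and YTHDC2 with the nuclease. Of all genes, 4.98% were lower in this way with YTHDF2 and 12.2% with the nuclease. No reader was higher in CPM without overlap between guides with YTHDF2, where 4.29% of genes were, or lower between effectors with the NT guide, where 5.96% were. In TPM some of these readers overlapped and others did not, as given for each reader, and no share of all genes was taken on that scale. For YTHDC2 between guides the 95% intervals ran from −6.13% to 48.6% with YTHDF2 and from −29.4% to 11.9% with the nuclease.

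**Figure D4:**
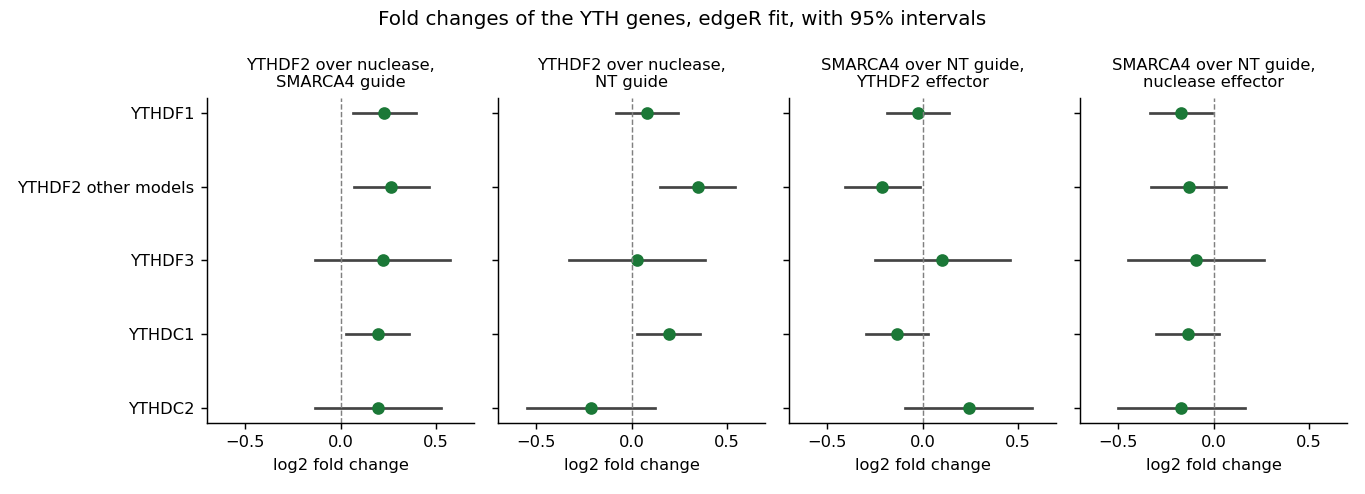
Points are log2 fold changes (x axes) of the 5 readers, YTHDF2 without YTHDF2-205, from the edgeR fit, and lines are 95% intervals. The 4 panels are YTHDF2 over nuclease with the SMARCA4 and NT guides and the SMARCA4 guide over the NT guide with the YTHDF2 and nuclease effectors. Intervals of YTHDC1 and the other YTHDF2 models lie above 0 in both effector panels, while no adjusted p is below 0.05.

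Over the 12 libraries the readers fell into 2 sets that varied together. These correlations are descriptions over libraries that share groups, depth and length trends. YTHDF1, YTHDC1 and the other YTHDF2 models correlated at Pearson r of 0.842 (YTHDF1 with YTHDC1), 0.863 (YTHDF1 with YTHDF2) and 0.842 (YTHDC1 with YTHDF2) in log2 CPM. YTHDF3 and YTHDC2 correlated at 0.869. Between these sets r ran from −0.254 to 0.297. Without YTHDF2-NT 1 and 2 the values within the first set were 0.848, 0.877 and 0.782, that of YTHDF3 with YTHDC2 was 0.609 and those between the sets ran from −0.0354 to 0.635. The highest of these was YTHDF3 with YTHDF1, above YTHDF3 with YTHDC2, so the place of YTHDF3 in the second set depends on those 2 libraries.

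The second set moved with each library's length trend. YTHDC2 and YTHDF3 have the longest mean effective lengths of the family, 5834 and 4098 bases, against 2924 for YTHDF1, 2783 for YTHDC1 and 2484 for the other YTHDF2 models. The deviation of YTHDC2 in log2 CPM correlated with the library's rho with length at r = 0.945 over 12 libraries and 0.891 over the 10 without YTHDF2-NT 1 and 2. For YTHDF3 these were 0.855 and 0.615. For YTHDF1, YTHDC1 and the other YTHDF2 models r was 0.128, −0.0422 and −0.209 over 12 libraries. The part of the length trend in each fold change was not tested beyond a fit with the trend removed, in which none of the 4 readers other than YTHDF2 was called.

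**Figure D5:**
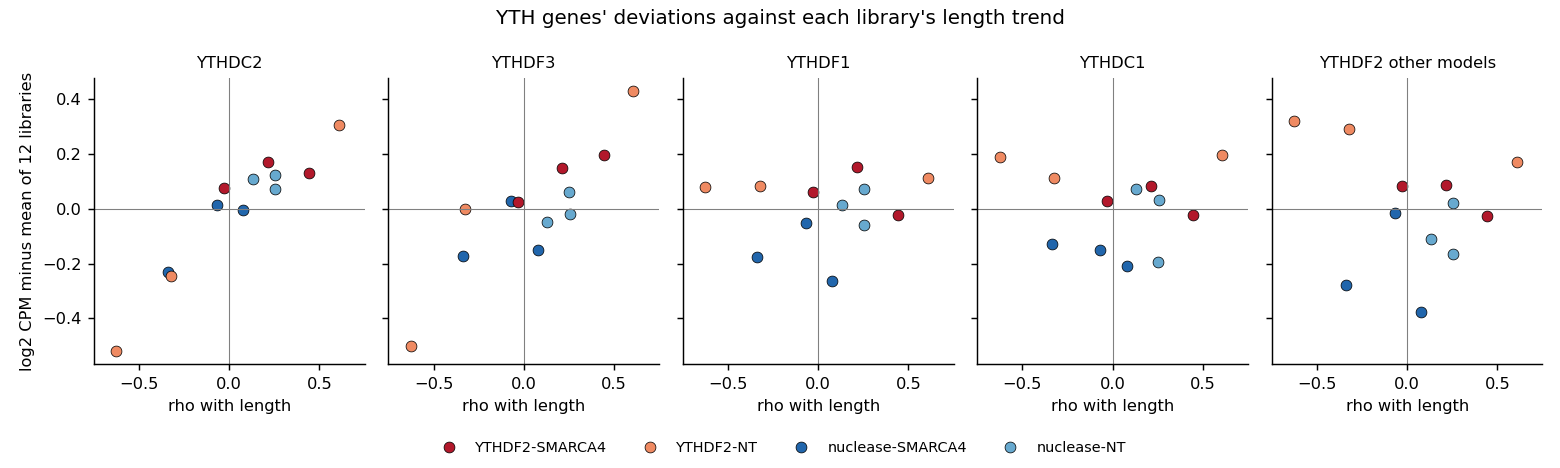
Each point is 1 library, coloured by group. The x axes give the Spearman rho between genes' log2 deviations and transcript length in that library, and the y axes the gene's log2 CPM minus its mean over 12 libraries. YTHDC2 (r = 0.945) and YTHDF3 (r = 0.855) lie along a rising line with YTHDF2-NT 1 and YTHDF2-NT 2 at its ends, while YTHDF1, YTHDC1 and the other YTHDF2 models do not.

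The genes whose log2 CPM most resembled each reader over the 12 libraries were found among 9944 genes with a mean of at least 10 CPM. For YTHDF1 they were UTP14A (r = 0.956), NOL8 (r = 0.943) and NXF1 (r = 0.936). For YTHDC1 they were TNRC6C (r = 0.959), UPF2 (r = 0.945) and SMC4 (r = 0.934), and for the other YTHDF2 models RRP15 (r = 0.966), DNAJB1 (r = 0.952) and SMC4 (r = 0.947). For YTHDF3 they were ASPM (r = 0.98) and IDE (r = 0.975), and for YTHDC2 ITCH (r = 0.977), USP37 (r = 0.973) and FAM91A1 (r = 0.97).

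Genes that write, erase or act on m6A were read in the same fit, and none of their 45 genes in 6 lists was called in any of the 6 comparisons by the edgeR quasi-likelihood test. An unadjusted p under 0.05 was found for 4 of the 45 between guides with YTHDF2, beside 6.82% of all genes, for 8 with the nuclease, beside 10.9%, and for 4 in the difference of guide effects, beside 11.1%. Between effectors it was found for 5 with the SMARCA4 guide, 7 with the NT guide and 8 over both, beside 11.5%, 10.9% and 11.5% of all genes. The shares of adjusted calls are those given for the readers. The 11 writers had a median log2 fold change of 0.10 for YTHDF2 over nuclease averaged over guides, from −0.0054 to 0.25, beside a median of 0.01 over all genes. ZC3H13, a scaffold of the methyltransferase complex, averaged 145 CPM in YTHDF2-SMARCA4, 174 in YTHDF2-NT, 129 in nuclease-SMARCA4 and 139 in nuclease-NT, and had the smallest p of the list (log2 fold change 0.25, SE 0.069, adjusted p = 0.198, edgeR quasi-likelihood test). WTAP, its adaptor subunit, followed at 0.16 (adjusted p = 0.277). Between guides the writers' median was −0.02 with YTHDF2 and −0.11 with the nuclease. ZC3H13 (−0.27) and METTL5 (−0.20), a methyltransferase of ribosomal RNA, had the smallest p with YTHDF2, both at adjusted p = 0.703, and METTL5 (0.19, adjusted p = 0.409) and WTAP (−0.14, adjusted p = 0.55) with the nuclease. The erasers FTO and ALKBH5 were at −0.05 and −0.09 between effectors over both guides, with adjusted p = 0.888 and 0.633. Between guides FTO was at 0.10 with YTHDF2 and −0.04 with the nuclease, and ALKBH5 at −0.02 with YTHDF2 and 0.13 with the nuclease.

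The 11 readers without a YTH domain had median log2 fold changes of 0.0015 between effectors over both guides, 0.0036 between guides with YTHDF2 and 0.0013 with the nuclease. FXR1 (0.11, adjusted p = 0.489) and HNRNPA2B1 (0.08, adjusted p = 0.573), RNA-binding proteins, had the smallest p between effectors. HNRNPA2B1 averaged 1885 CPM in YTHDF2-SMARCA4 and 2211 CPM in YTHDF2-NT, at −0.23 between guides with YTHDF2 (unadjusted p = 0.00456, adjusted p = 0.703), followed by PRRC2A (0.17, adjusted p = 0.757). With the nuclease ELAVL1 (0.12, adjusted p = 0.539) and FXR1 (0.12, adjusted p = 0.592) led. The 11 CCR4-NOT subunits, the deadenylase that YTHDF2 recruits, had a median of 0.01 between effectors, with CNOT2 (0.19, adjusted p = 0.194) and CNOT4 (0.10, adjusted p = 0.775) at the smallest p. Their medians between guides were 0.02 with YTHDF2, where CNOT2 (−0.21, adjusted p = 0.703) and CNOT8 (0.10, adjusted p = 0.755) led, and −0.09 with the nuclease, where CNOT10 (−0.27, unadjusted p = 0.00159, adjusted p = 0.207) and CNOT4 (−0.32, adjusted p = 0.417) led.

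The 8 partners of YTH proteins had a median of 0.10 between effectors over both guides. NXF1, the mRNA export receptor, averaged 77.6 CPM in YTHDF2-SMARCA4, 82.9 in YTHDF2-NT, 59.9 in nuclease-SMARCA4 and 73.8 in nuclease-NT, or 0.27 (SE 0.069, unadjusted p = 0.00161, adjusted p = 0.183), and the splicing factor SRSF3, a partner of YTHDC1, was at 0.17 (adjusted p = 0.327). Between guides the partners' median was 0.01 with YTHDF2, led by RIDA (−0.23, adjusted p = 0.703), a bridge from YTHDF2 to RNase P and MRP, and SRSF3 (−0.12, adjusted p = 0.741). It was −0.14 with the nuclease, led by POP1 (−0.27, adjusted p = 0.267), a subunit of those enzymes, and NXF1 (−0.30, adjusted p = 0.298). SON and CREBBP, mRNAs known to be bound by YTHDF2, were at 0.13 (adjusted p = 0.417) and 0.15 (adjusted p = 0.702) between effectors over both guides. Between guides SON was at −0.05 with YTHDF2 and −0.25 with the nuclease, and CREBBP at 0.12 with YTHDF2 and −0.17 with the nuclease, with adjusted p between 0.308 and 0.872 in these 4 (edgeR quasi-likelihood test).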

How the data were processed

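Gene and transcript levels were taken from 12 tables, 1 per library, with an estimated count and a TPM value per transcript. The submitters' processing notes name kallisto, sleuth and the hg38 build, and the authors' deposited estimated counts carry kallisto's column names. The deposited TPM values, per the file headers, are the same abundances scaled by effective length, so they keep no depth. Versions and the strand setting are not given in the sources used here. Kallisto divides reads among models that share sequence, and the error of that division is in no test.

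Rows were taken by symbol. Estimated counts were summed per gene, rounded and tested with edgeR 4.0.16 in R 4.3.3 (quasi-likelihood test, TMM, filterByExpr, 1 mean per group over 12 libraries, 8 residual degrees of freedom, biological coefficient of variation 11.4%). YTHDF2 was entered as a sum and, in a second fit, split into YTHDF2-205 and the other models. The same test was run on transcript models. Tests were two-sided, with calls at 0.05 after Benjamini-Hochberg adjustment over all features tested, and intervals are for 95% confidence. CPM uses TMM-adjusted totals. Shares were tested by exact permutation, of 6 against 6 libraries within guide, whose smallest p is 0.005. The fit was tested on simulated counts. The precision of the estimated counts is that of 9207196 to 18047859 counts per library.

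The text names all 5 readers, their models with a mean of at least 1 CPM in a group, the 2 genes of each m6A list with the smallest p in the guide comparisons and in the effector comparison over both guides, and the 3 genes most correlated with each reader, of which 1 is not reported here. The members and lists were chosen with earlier results of these data known. Alternatives were RLE normalization, DESeq2 1.42.0, no filter on low counts, a replicate block, only the libraries compared, length-scaled TPM, limma 3.58.1 on log2(TPM + 1) and log2(TPM + 0.1), leaving out the rows related to the constructs, removing the length trend, and leaving out each library. Leaving out YTHDF2-NT 1 and 2 together was chosen after seeing the data. No 2 libraries of a group agreed within sampling noise, with chi-square values of at least 3.65 per degree of freedom.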

Additional observations from a re-analysis of the deposited data

How the results depend on the processing

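All 3 effector fold changes of summed YTHDF2, which YTHDF2-205 carries, lay between 4.48 and 7.0 on the log2 scale under every alternative. In the order of the SMARCA4 guide with the nuclease, the same with YTHDF2, the difference of guide effects, and YTHDF2 over nuclease with the SMARCA4 guide, the NT guide and both, the fit over all genes called 1, 0, 0, 1, 8 and 5 genes. DESeq2 called 142, 3, 38, 102, 93 and 172, and no filter on low counts gave 333, 214, 493, 296, 360 and 252. Only the libraries compared gave 550 for the nuclease guides and 660 for the effectors with the SMARCA4 guide. Leaving out YTHDF2-NT 1 and 2, chosen after seeing the data, leaves that group 1 library assumed to vary like the other groups, and gave 706, 0, 121, 714, 32 and 195, and removing the length trend 7, 0, 2, 10, 17 and 28. Length-scaled TPM gave 0, 1 and 3 for the nuclease guides and the effectors with the NT guide and with both. Limma on log2(TPM + 1) gave 0, 2 and 1 for the nuclease guides, the difference and the effectors over both guides. On log2(TPM + 0.1) it gave the same 3 counts and 1 for the YTHDF2 guides. Without the rows related to the constructs the effectors with the SMARCA4 guide gave 0 and over both guides 3. Leaving out 1 library gave 0 to 44, 0 to 1585, 0 to 1444, 1 to 70, 1 to 1610 and 2 to 290, and of the 4 readers other than YTHDF2 it called 0 to 1 between YTHDF2 guides, in the difference and between effectors with the NT guide, always YTHDC2. Of the YTH models it called 0 to 1 with the NT guide, the 1 being YTHDF2-205, which was singled out by its counts. The cause of these moves was not tested.

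The other YTHDF2 models passed under DESeq2 with the NT guide (0.34, adjusted p = 0.0387) and over both guides (0.30, adjusted p = 0.00382), and with no filter (0.33 and 0.29, adjusted p = 0.0339 and 0.00163). Over both guides without YTHDF2-NT 1 and 2 they were at 0.32, with no p given, since that group then has 1 library. Leaving out 1 library kept them between 0.29 and 0.39 with the NT guide and between 0.27 and 0.36 over both.

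Replicate numbers did not pair the libraries, since same-numbered deviations correlated at −0.201 to 0.216. With the replicate number as a block the fit called 2, 0, 1, 3, 4 and 2 genes, no reader other than YTHDF2, and turned the difference of guide effects of YTHDC1 to −0.0025.

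Fold changes that changed sign were not called under any of these settings. On log2(TPM + 1) and log2(TPM + 0.1), YTHDF1 was at 0.14 and 0.14 between YTHDF2 guides and −0.12 and −0.12 between effectors with the NT guide, YTHDF3 at −0.17 and −0.19 there, YTHDC1 at 0.0455 and 0.0469 between YTHDF2 guides and −0.0142 and −0.0149 between effectors with the NT guide. The other YTHDF2 models were at 0.0096 and 0.0097 between YTHDF2 guides and 0.24 and 0.25 for the difference, and summed YTHDF2 at 0.16 and 0.16 for it. Length-scaled TPM put YTHDF1 at 0.0069 between YTHDF2 guides, and removing the length trend put YTHDC1 at −0.0878 for the difference. Without YTHDF2-NT 1 and 2, YTHDF3 was at −0.000701 between effectors with the NT guide. Leaving out 1 library gave, for the difference of guide effects, YTHDC1 −0.037 to 0.091, YTHDF3 −0.0092 to 0.45, summed YTHDF2 −0.21 to 0.064 and the other YTHDF2 models −0.15 to 0.032. It gave YTHDF1 −0.061 to 0.028 and YTHDF3 −0.10 to 0.36 between YTHDF2 guides, YTHDF3 −0.23 to 0.23 and YTHDF2-209 −0.34 to 0.14 between effectors with the NT guide, and YTHDC2 −0.15 to 0.072 and YTHDF3 −0.0078 to 0.22 over both guides.

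Of the 52 recomputed shares of models, 15 no longer had an unadjusted exact permutation p under 0.05. Counting protein-coding models only lowered YTHDF3 to 11.8 TPM over the 12 libraries, against 15.2 TPM with all models.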
